A study of Mus musculus with 6 samples.

Results

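The endoderm and visceral endoderm genes described here are 31 genes, taken by symbol from the rows of all 6 deposited tables. All 31 symbols were found among the 30631 genes listed. They comprise transcription factors of endoderm, components of the endocytic machinery of the visceral endoderm, and secreted proteins of the yolk sac and fetal liver. Definitive endoderm is the germ layer that forms the gut, liver and pancreas. Visceral endoderm is the extraembryonic epithelium that surrounds the early embryo and later lines the yolk sac, where it takes up maternal nutrients and secretes serum proteins before the liver exists. Both layers lie beside the forming heart and signal to it, and cultures of differentiating stem cells commonly hold some endoderm next to cardiac cells. The forkhead factors of the FOXA family and the nuclear receptor HNF4A are among the regulators of both layers, and the serum protein genes are among their best known targets.

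RNA was sequenced from mouse embryonic stem cell cultures, differentiated in hanging drops toward pacemaker-type (sinoatrial node-like) cardiomyocytes. All cultures started from stem cell clones expanded on mouse embryonic fibroblasts, and at stage 7+1 days cells were sorted for CD166, the surface protein that Alcam encodes. There were 3 libraries labelled Shox2-/- (title numbers Diff7, Diff8 and Diff9) and 3 labelled wild type, Shox2+/+ (Diff9, Diff9 and Diff811). The 3 titles labelled Shox2-/- carry 1 shared clone-like prefix and the 3 labelled wild type carry a different prefix each, so clone and genotype cannot be told apart, and nothing states that samples of a group were separate cultures. A p-value here therefore reflects no more than sample-to-sample spread, and that spread may be technical.

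Read depth came to 13782017, 26199927 and 31151471 recovered reads in libraries 1, 2 and 3 labelled Shox2-/-, and those labelled wild type held 13504683, 34650564 and 29916220. Reads of the targeted gene went against the labels: Shox2 was at 201 to 548 normalized counts in libraries labelled Shox2-/- and at 31.4 to 89.6 in libraries labelled wild type, so each direction below is one between labels. Alcam was at 4176 to 5312 in libraries labelled Shox2-/- and at 5841 to 6591 in those labelled wild type. The nature of the Shox2 allele is not stated in the labels. Libraries 1 and 2 labelled wild type stood apart as a close pair. Between them 15.0% of well covered genes differed by more than counting error, against 49.3% to 72.2% in the other 14 pairs. The next closest pairs joined library 3 labelled Shox2-/-, also titled Diff9, to libraries 1 (49.3%) and 2 (53.9%) labelled wild type. Its pair with library 1 of its own label followed (54.1%). All 15 genes of a cardiomyocyte marker list were detected in every library, with summed normalized counts of 15389 to 39505 in those labelled Shox2-/- and 11900 to 33175 in those labelled wild type.

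Promoter windows of 4 members are shown because Foxa1, Foxa2, Foxa3 and Hnf4a, which encode DNA-binding factors, are members beside serum protein genes. Whether any such factor bound there was not measured. RefSeq windows (GRCm38.p6, the assembly of mm10), from 250 bases before to 50 bases after the annotated start, were matched for 27 of the 31 genes. Those of Ttr, Trf, Sox17 and Soat2 are not used here. The motifs searched on both strands were the FOXA forms TGTTTAC and TGTTTGC, an HNF1 form (GTTAAT, 1 unspecified base, ATT), the HNF4 form CAAAGTCCA and the GATA form AGATAA. The 4 members with the most matches follow, ties being broken by mean level, on the strand of the gene from 5′ to 3′, with matches in capitals.

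Afp (chr5:90490464-90490763, plus strand): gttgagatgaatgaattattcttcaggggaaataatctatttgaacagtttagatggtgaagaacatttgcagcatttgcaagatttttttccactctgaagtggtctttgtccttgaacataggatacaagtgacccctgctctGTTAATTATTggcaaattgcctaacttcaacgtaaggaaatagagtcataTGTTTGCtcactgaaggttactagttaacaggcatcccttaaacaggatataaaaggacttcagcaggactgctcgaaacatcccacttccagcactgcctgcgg
Apoa1 (chr9:46228380-46228679, plus strand): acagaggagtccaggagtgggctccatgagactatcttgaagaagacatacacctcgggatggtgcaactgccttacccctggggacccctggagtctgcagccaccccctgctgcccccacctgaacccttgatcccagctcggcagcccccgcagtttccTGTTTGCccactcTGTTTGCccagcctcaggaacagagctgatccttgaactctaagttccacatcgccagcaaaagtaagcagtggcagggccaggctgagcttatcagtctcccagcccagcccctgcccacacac
Prdm1 (chr10:44458699-44458998, minus strand): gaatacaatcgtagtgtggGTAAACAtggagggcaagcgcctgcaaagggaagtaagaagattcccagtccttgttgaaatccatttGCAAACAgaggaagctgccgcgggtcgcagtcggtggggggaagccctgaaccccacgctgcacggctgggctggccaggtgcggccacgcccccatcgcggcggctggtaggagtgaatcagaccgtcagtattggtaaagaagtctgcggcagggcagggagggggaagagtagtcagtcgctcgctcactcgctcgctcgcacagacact
Cer1 (chr4:82885102-82885401, minus strand): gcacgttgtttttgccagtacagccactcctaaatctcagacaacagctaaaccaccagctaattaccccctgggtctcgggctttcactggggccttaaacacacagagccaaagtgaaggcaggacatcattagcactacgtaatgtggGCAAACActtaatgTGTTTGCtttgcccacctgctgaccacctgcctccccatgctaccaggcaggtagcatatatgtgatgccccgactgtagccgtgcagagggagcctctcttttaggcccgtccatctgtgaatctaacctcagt

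In the Afp window the HNF1 form begins 105 bases and TGTTTGC 55 bases upstream of the start. The Apoa1 window holds TGTTTGC at 88 and again at 75 bases upstream. The Prdm1 window has both FOXA forms on the opposite strand, 231 and 163 bases upstream, and the Cer1 window has TGTTTGC on each strand, 99 and 85 bases upstream. Over all 33 windows of the 27 members, TGTTTGC was found in 24.2%, against 5.07% of the 32851 windows in the table. TGTTTAC was in 12.1% of member windows against 3.65% of all. The HNF1 form was in 1 member window, that of Afp (3.03%), against 0.399% of all. AGATAA was about as frequent in member windows (12.1%) as in all (11.2%), and CAAAGTCCA was in 0 of the 33 member windows against 0.475% of all. These matches are letters in a window and do not show binding. Some members had more than 1 window, without overlap between them, and windows of other genes may overlap.

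As a whole the 31 genes made up little of the RNA and varied more between libraries of the same label than most genes did. Their summed normalized counts were 2214.5, 11220.9 and 4130.8 in libraries 1, 2 and 3 labelled Shox2-/-, and 11782.4, 10888.8 and 14462.8 in libraries 1, 2 and 3 labelled wild type. That is 0.00929%, 0.0479% and 0.0179% of all normalized counts in those labelled Shox2-/-, and 0.0526%, 0.0482% and 0.0616% in those labelled wild type. Libraries 1 and 3 labelled Shox2-/- were low, and library 2 with that label lay at the level of libraries 1 and 2 labelled wild type. In bulk RNA, fewer endoderm cells and less endoderm RNA per cell cannot be told apart. The range within a group had a median over members of 2.39 on the log2 scale in libraries labelled Shox2-/- and 0.95 in those labelled wild type. Over all 17034 genes tested it was 0.41 among those labelled Shox2-/- and 0.40 among those labelled wild type. Those genes were not matched to the members by level. Of the 31 members 18 were at or above 10 in every library, and counting error adds to the range where reads are few.

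**Figure D1:**
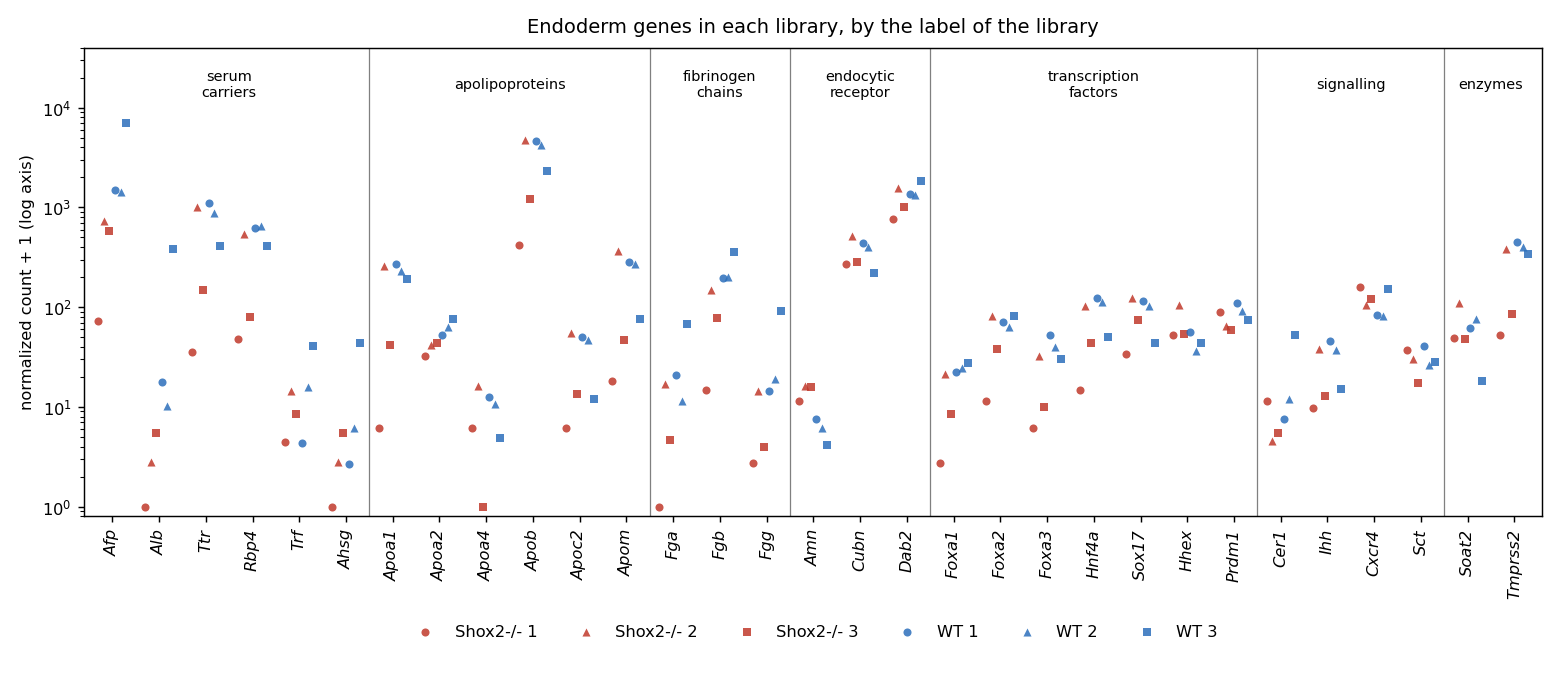
Normalized count plus 1 (log axis) of the 31 endoderm genes, grouped by role, with 1 point for each library; red symbols are libraries labelled Shox2-/- and blue symbols those labelled wild type (WT). For Ttr, Rbp4, Apoa1, Fga and Fgg the red circle and red square lie below every blue symbol and the red triangle, library 2 labelled Shox2-/-, lies among them; the triangle lies above the blue symbols for Apob and Apom, and below them for Afp, Apoa2 and Fgb.

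Of the 31 genes, 28 had a normalized count of at least 10 in at least 3 libraries and were tested, 23 of them lower and 5 higher in libraries labelled Shox2-/-. In limma 0 of the 28 passed at an adjusted p under 0.05, and 0% of all 17034 genes did. The lowest adjusted p among members was 0.274, that of Amn. At an unadjusted p under 0.05, 8 members were lower, where 7.23% of all genes were, and 1 was higher, where 6.92% of all genes were. The median log2 change was -1.13 over the tested members and 0.01 over all genes. Values of the labelled groups did not overlap for 4 lower members (10.8% of all genes) and for 1 higher member (12.8% of all genes). The members that did not pass the filter on low values were Alb, Ahsg and Apoa4. Trf, Amn and Cer1 passed with exactly 3 libraries, Amn only through the libraries labelled Shox2-/-.

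Without library 2 labelled Shox2-/-, 2 members were called in limma, both lower, against 0.164% of all genes. They were Rbp4 (log2 change -3.16, SE 0.30; adjusted p = 0.0396) and Tmprss2 (log2 change -2.55, SE 0.26; adjusted p = 0.0399). Library 2 stood out by these same member values, so calls made without it are no separate support for a difference. As in the fit of all 6 libraries, libraries 1 and 2 labelled wild type, the close pair, counted as separate samples. This can make the SE too small in both fits. Without library 2 labelled Shox2-/- the median log2 change of the 28 became -1.76. At an unadjusted p under 0.05, 17 of them were lower, where 8.32% of all genes were. Also 17 lay lower in both remaining libraries labelled Shox2-/- than in any labelled wild type, as 18.1% of all genes did. Without library 1 labelled Shox2-/- the median was -0.50 and 0 members were called. Library 1 labelled Shox2-/- was the lowest of all 6 for 19 of 28 tested members (67.9%), and for 23.0% of all genes. Library 2 labelled Shox2-/- was the highest of its group for 23 of 28 (82.1%), and for 35.2% of all genes. It was at least 2-fold above the mean of libraries 1 and 3 for 19 of 28 members (67.9%), and for 5.08% of all genes.

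**Figure D2:**
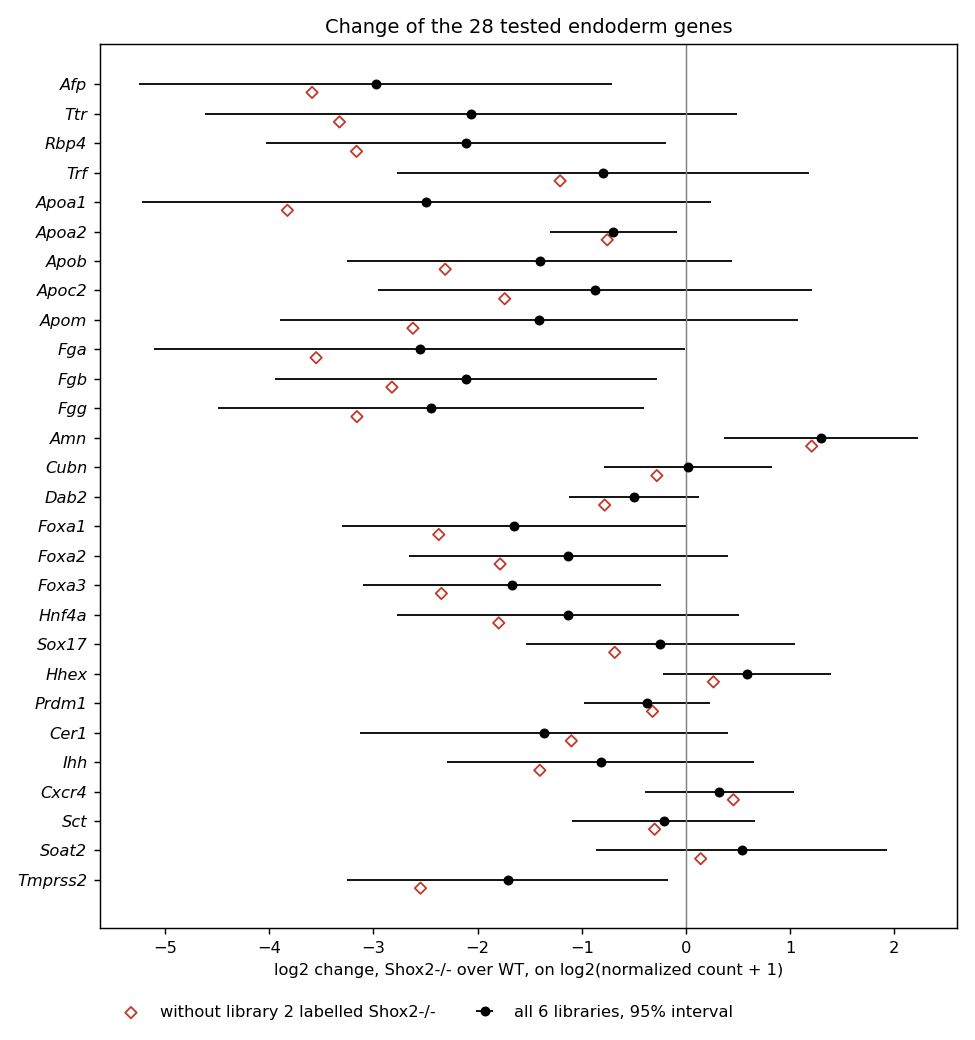
Log2 change of the 28 tested genes, libraries labelled Shox2-/- over libraries labelled WT; black points with bars are the limma estimate and 95% interval from all 6 libraries, and open red diamonds the estimate without library 2 labelled Shox2-/-. The black points lie left of 0 for 23 genes, and the diamonds of Rbp4 and Tmprss2, at -3.16 and -2.55, are those of the 2 genes called without that library.

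Among the serum carriers, Afp encodes alpha-fetoprotein, the main serum protein of yolk sac and fetal liver (ENSMUSG00000054932; mm10 chromosome 5, 90490737 to 90508907, plus strand). It had 70.9, 728 and 582 normalized counts in libraries 1, 2 and 3 labelled Shox2-/-, and 1490.4, 1429 and 7020.2 in libraries 1, 2 and 3 labelled wild type. The groups did not overlap, and library 3 labelled wild type was 4.81-fold above the mean of the other two with its label. The means were 461 ± 345 (SD, n = 3) in libraries labelled Shox2-/- and 3313 ± 3210.4 (SD, n = 3) in those labelled wild type, a log2 change of -2.98 (SE 0.97, 95% interval -5.25 to -0.71; limma adjusted p = 0.287). Alb, serum albumin, lies 14134 bases from Afp on the same strand of chromosome 5 (90460897 to 90476602). It was at 0, 1.79 and 4.44 in libraries labelled Shox2-/-, and at 16.6, 9.12 and 378 in those labelled wild type. These values also did not overlap, but rest on 0, 2 and 6 reads in libraries labelled Shox2-/- and on 10, 14 and 482 in those labelled wild type. The count of 0 in library 1 labelled Shox2-/- allows a value of up to 5.19, which is 3 reads there. Albumin in library 3 labelled wild type was 29.4-fold above the mean of libraries 1 and 2, and the gene was not tested. Ahsg, the fetal liver glycoprotein fetuin-A, was not tested either. It was at 0, 1.79 and 4.44 in libraries labelled Shox2-/-, and at 1.66, 5.21 and 42.4 in those labelled wild type, so the groups overlapped and library 3 labelled wild type was the highest.

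Ttr, transthyretin, carries thyroid hormone and forms a complex with Rbp4, the retinol carrier. Ttr had 34.6, 1013 and 149 normalized counts in libraries labelled Shox2-/-, and 1107, 871 and 406 in those labelled wild type. Library 2 labelled Shox2-/- was 11.0-fold above the mean of the other two and 1.02-fold the mean of libraries 1 and 2 labelled wild type. Rbp4 had 46.7, 544 and 77.8 in libraries labelled Shox2-/-, and 614, 651 and 411 in those labelled wild type. Here too libraries 1 and 3 labelled Shox2-/- lay below every library labelled wild type, while library 2 lay inside their range. The log2 change of Ttr was -2.06 (SE 1.09; limma adjusted p = 0.426) and that of Rbp4 -2.11 (SE 0.82; adjusted p = 0.324). Trf, transferrin, was low throughout, at 3.46 to 13.4 in libraries labelled Shox2-/- and 3.32 to 40.0 in those labelled wild type. Its exons overlap a second annotated coding gene over 2108 of 3320 bases, and how reads from the shared bases were counted is not stated.

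For 4 of the 6 apolipoprotein genes, namely Apob, Apoa1, Apom and Apoc2, library 2 labelled Shox2-/- lay at the level of libraries 1 and 2 labelled wild type. Apob, the structural protein of chylomicrons and very low density lipoprotein, is secreted in bulk by visceral endoderm (ENSMUSG00000020609; chromosome 12, 7977648 to 8016835, plus strand). It had 419, 4720.2 and 1219.9 normalized counts in libraries labelled Shox2-/-, and 4614, 4236 and 2293 in those labelled wild type, so library 2 labelled Shox2-/- was the highest of all. Apoa1, the main protein of high density lipoprotein, had 5.19, 257 and 40.7 in libraries labelled Shox2-/-, and 271, 227 and 190.0 in those labelled wild type. Apom, a lipocalin that carries sphingosine 1-phosphate, had 17.3, 364 and 45.9 in libraries labelled Shox2-/-, and 284, 269 and 75.4 in those labelled wild type. For Apoa1 and Apom the distance between library 2 and the mean of libraries 1 and 3 labelled Shox2-/- was 11.2-fold and 11.5-fold. Apoc2, the activator of lipoprotein lipase, had 5.19, 54.5 and 12.6 in libraries labelled Shox2-/-, and 49.8, 46.3 and 11.0 in those labelled wild type. Its exons share 646 of 813 bases with another coding gene model on the same strand. Log2 changes were -1.40 (SE 0.79) for Apob, -2.49 (SE 1.17) for Apoa1, -1.41 (SE 1.06) for Apom and -0.87 (SE 0.89) for Apoc2, with limma adjusted p between 0.381 and 0.677.

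Apoa2, another major protein of high density lipoprotein, had a narrow range within each group. It had 31.1, 41.1 and 42.2 normalized counts in libraries labelled Shox2-/-, and 51.4, 61.9 and 74.6 in those labelled wild type, without overlap. The log2 change was -0.70 (SE 0.26, 95% interval -1.31 to -0.09; limma adjusted p = 0.313), the smallest among the members whose groups did not overlap. Apoa4, a chylomicron apolipoprotein 10229 bases from Apoa1 on chromosome 9, was near the limit of counting, at 0 to 15.2 in libraries labelled Shox2-/- and 3.93 to 11.6 in those labelled wild type.

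The 3 fibrinogen chains, which assemble into the clotting protein and lie together on chromosome 3 between 83007724 and 83049863, were all lower in libraries 1 and 3 labelled Shox2-/- than in any labelled wild type. Fgb, the beta chain, had 13.8, 148 and 77.0 normalized counts in libraries labelled Shox2-/-, and 194, 199 and 356 in those labelled wild type, without overlap. Fga, the alpha chain, had 0, 16.1 and 3.70 in libraries labelled Shox2-/-, and 19.9, 10.4 and 67.5 in those labelled wild type. Fgg, the gamma chain, had 1.73, 13.4 and 2.96 in libraries labelled Shox2-/-, and 13.3, 18.2 and 91.1 in those labelled wild type. In every chain library 3 labelled wild type was the highest of the 6. The log2 changes were -2.56 (SE 1.09) for Fga, -2.11 (SE 0.78) for Fgb and -2.45 (SE 0.87) for Fgg. Their limma adjusted p were 0.352, 0.308 and 0.301.

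Of the 3 genes of the endocytic receptor complex, 1 was lower and 2 were higher in libraries labelled Shox2-/-. Cubilin, which Cubn encodes, binds vitamin B12 complexes and apolipoprotein A-I, amnionless (Amn) anchors it in the membrane, and the adaptor Dab2 links it to clathrin. Cubn had 272, 515 and 283 normalized counts in libraries labelled Shox2-/-, and 439.8, 401 and 217 in those labelled wild type. Its log2 change was 0.02 (SE 0.34, 95% interval -0.79 to 0.82), and its sign turned in 5 of 16 alternative settings. Dab2, also made by mesenchyme and endothelium, was at 759.5, 1569 and 998 in libraries labelled Shox2-/-, and at 1369, 1332 and 1839 in those labelled wild type. Its log2 change was -0.50 (SE 0.27; limma adjusted p = 0.430). Amn was the 1 member higher without overlap, at 10.4, 15.2 and 14.8 in libraries labelled Shox2-/-, and 6.64, 5.21 and 3.14 in those labelled wild type. These Amn values rest on 6 to 20 reads in libraries labelled Shox2-/- and 4 to 8 in those labelled wild type. Amn passed the filter only through the libraries labelled Shox2-/-, where it was high, so its test is no support for a difference. Its log2 change was 1.30 (SE 0.40; limma adjusted p = 0.274).

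Of the 7 transcription factor genes, 6 had lower and 1 a higher mean log2 value in libraries labelled Shox2-/-. Foxa1, Foxa2 and Foxa3 encode forkhead pioneer factors that open chromatin in endoderm. Foxa1 had 1.73, 20.6 and 7.41 normalized counts in libraries labelled Shox2-/-, and 21.6, 23.5 and 26.7 in those labelled wild type. These values did not overlap, but library 2 labelled Shox2-/- (23 reads) and library 1 labelled wild type (13 reads) lay within the worth of 1 read in the second of these, 1.66. Foxa2 had 10.4, 80.4 and 37.0 in libraries labelled Shox2-/-, and 69.7, 62.6 and 80.9 in those labelled wild type. Foxa3 had 5.19, 31.3 and 8.89 in libraries labelled Shox2-/-, and 51.4, 39.1 and 29.0 in those labelled wild type. In all 3 library 1 labelled Shox2-/- was the lowest of the 6, and library 2 lay at or near the values of the libraries labelled wild type. Hnf4a, which encodes the nuclear receptor that drives apolipoprotein genes, had 13.8, 101 and 43.0 in libraries labelled Shox2-/-, and 123, 113 and 48.7 in those labelled wild type. Log2 changes were -1.65 (SE 0.70) for Foxa1, -1.13 (SE 0.65) for Foxa2, -1.67 (SE 0.61) for Foxa3 and -1.13 (SE 0.70) for Hnf4a, with limma adjusted p from 0.306 to 0.486.

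The groups overlapped for Foxa2, Foxa3 and Hnf4a, and also for the other factors, Sox17, Hhex and Prdm1. Sox17, a SOX factor of definitive endoderm and of endothelium, had 32.9, 123 and 73.3 normalized counts in libraries labelled Shox2-/-, and 115, 102 and 43.2 in those labelled wild type. Hhex, a homeobox factor of foregut, anterior visceral endoderm and endothelium, had 51.9, 104 and 53.3 in libraries labelled Shox2-/-, and 54.8, 35.2 and 43.2 in those labelled wild type. Prdm1, which encodes the repressor BLIMP1 of visceral endoderm and germ cells, was at 58.5 to 88.2 in libraries labelled Shox2-/- and 73.0 to 109.5 in those labelled wild type. Log2 changes were -0.25 (SE 0.55) for Sox17, 0.58 (SE 0.34) for Hhex and -0.37 (SE 0.26) for Prdm1. The interval of Sox17 ran from -1.54 to 1.04.

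Among the 4 signalling genes and 2 enzymes, 4 were lower and 2 higher. Tmprss2, a membrane serine protease of gut and other epithelia, had 51.9, 383 and 83.7 normalized counts in libraries labelled Shox2-/-, and 445, 397 and 338 in those labelled wild type. Its log2 change was -1.71 (SE 0.66, 95% interval -3.25 to -0.17; limma adjusted p = 0.321). Ihh, the hedgehog ligand that yolk sac endoderm sends to the blood-forming mesoderm, had 8.65, 36.6 and 11.9 in libraries labelled Shox2-/-, and 44.8, 35.8 and 14.1 in those labelled wild type. Soat2, which esterifies cholesterol in gut and liver, had 48.4, 109.9 and 47.4 in libraries labelled Shox2-/-, and 61.4, 75.6 and 17.3 in those labelled wild type. Both were low in library 3 labelled wild type, where Ihh was 0.350-fold and Soat2 0.252-fold the mean of libraries 1 and 2. Cer1, a secreted antagonist of Nodal, BMP and Wnt from anterior visceral endoderm, was at 3.58 to 10.4 in libraries labelled Shox2-/-, and at 6.64, 11.1 and 51.0 in those labelled wild type. Cxcr4, the chemokine receptor used to sort definitive endoderm and also found on mesoderm, was at 104 to 159 in libraries labelled Shox2-/- and 80.8 to 152 in those labelled wild type. Sct, the gut hormone secretin, was at 16.3 to 36.3 in libraries labelled Shox2-/- and 25.4 to 39.8 in those labelled wild type. Of these Tmprss2 alone had a limma interval that left out 0.

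Library 3 labelled wild type differed from libraries 1 and 2 with that label in both directions. It was at least 2-fold above the mean of libraries 1 and 2 for 7 of the 31 members, namely Afp, Alb, Ahsg, Trf, Fga, Fgg and Cer1. It was at or below 0.5-fold that mean for 8 members, namely Ttr, Apoa4, Apoc2, Apom, Hnf4a, Sox17, Ihh and Soat2. Among the 28 tested members these were 5 (17.9%) and 7 (25.0%), against 5.12% and 5.05% of all genes. Within 1.5-fold of the mean of libraries 1 and 2 labelled wild type lay 22 of 28 tested members in library 2 labelled Shox2-/-, 9 in library 3 labelled wild type, 8 in library 3 and 5 in library 1 labelled Shox2-/-. Over all genes these shares were 80.1% for library 2 labelled Shox2-/-, 75.3% for library 3 labelled wild type, and 85.8% for library 3 and 73.3% for library 1 labelled Shox2-/-.

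**Figure D3:**
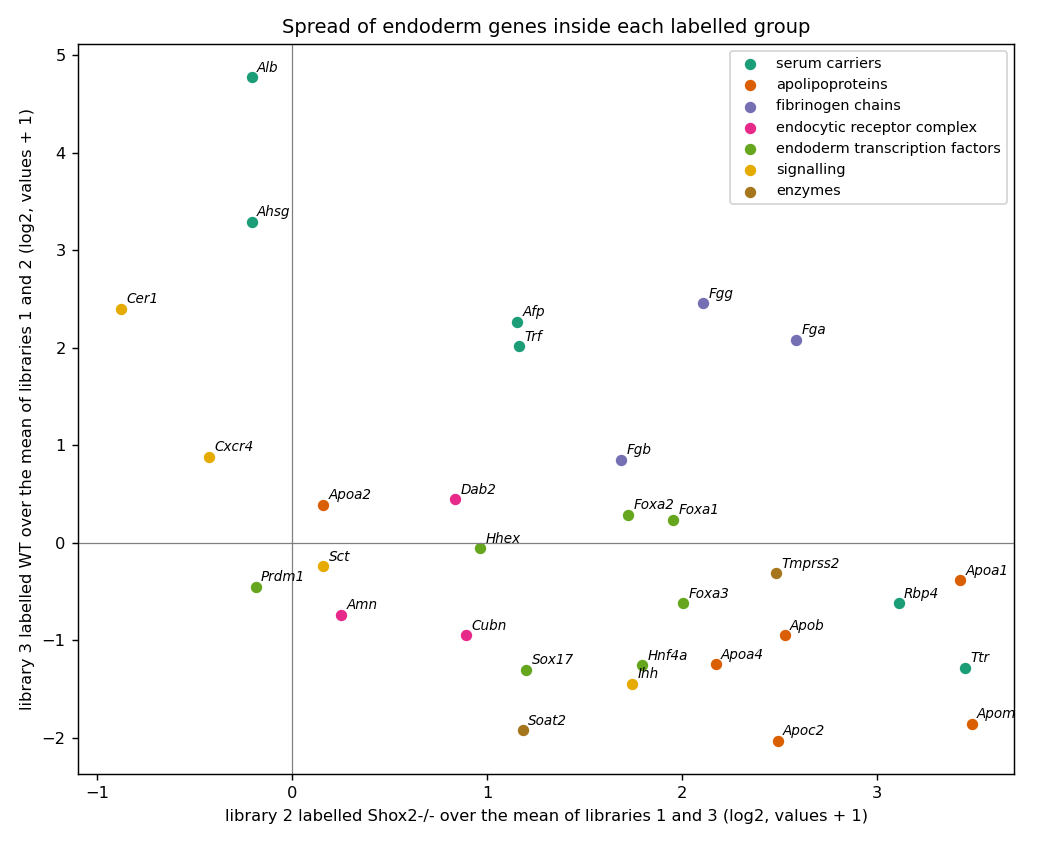
Each point is 1 of the 31 genes, coloured by role; the x axis gives library 2 over the mean of libraries 1 and 3 labelled Shox2-/-, and the y axis library 3 over the mean of libraries 1 and 2 labelled WT, both as log2 of values plus 1. Apolipoproteins other than Apoa2, and Ttr and Rbp4, lie to the right and below 0 on the y axis, whereas Alb, Ahsg and Cer1 lie high and left of 0 on the x axis.

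Normalized counts per kilobase of exon allow the members to be ordered within a library. Library 2 labelled Shox2-/- began with Ttr (854 per kilobase), Rbp4 (405), Apom (359) and Apob (339). Libraries 1 and 2 labelled wild type shared the order Ttr, Rbp4, Afp and Apob, with Ttr at 933 and 735 per kilobase. In library 3 labelled wild type Afp led with 2080 per kilobase, ahead of Ttr (342) and Rbp4 (306), and Alb reached 162. The order in library 1 labelled Shox2-/- was led by genes that other tissues express too, Dab2 (103 per kilobase) and Cxcr4 (88.0). Apoa2 (58.0), Sct (56.3), Rbp4 (34.8), Apob (30.0) and Ttr (29.2) came next. Library 3 labelled Shox2-/- began with Afp (173 per kilobase), Dab2 (136) and Ttr (126).

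Genes of the same tissues that are not members were read from lists chosen with earlier results known. Of 23 further secreted liver proteins 13 were tested, with 12 lower and 1 higher, a median log2 change of -1.54, and 9 lower and 0 higher at an unadjusted p under 0.05, where 7.23% of all genes were lower and 6.92% higher. Serpina1b, an alpha-1 antitrypsin gene of a multigene family whose reads can match several copies, had 0, 7.15 and 3.70 normalized counts in libraries labelled Shox2-/-, and 33.2, 17.0 and 67.5 in those labelled wild type. Ambp, the precursor of alpha-1 microglobulin, had 3.46, 7.15 and 5.93 in libraries labelled Shox2-/-, and 18.3, 16.3 and 50.2 in those labelled wild type. Serpina1b and Ambp are among the 9, but passed the filter on low values only through the libraries labelled wild type, where they were high. Their tests are therefore no support for a difference. Of 31 further visceral endoderm and yolk sac genes 24 were tested, with 16 lower, 8 higher and a median of -0.48; at the same unadjusted threshold 3 were lower and 1 higher. Gc, the vitamin D binding protein, was lower without overlap, at 1.73, 8.04 and 1.48 in libraries labelled Shox2-/-, and 19.9, 21.5 and 25.9 in those labelled wild type. The value of 1.73 in library 1 labelled Shox2-/- is 1 read. Gc too passed the filter only through the libraries labelled wild type, so its test and lack of overlap are no support for a difference. Lefty1, a Nodal antagonist of anterior visceral endoderm, had 39.8, 22.4 and 45.9 in libraries labelled Shox2-/-, and 86.3, 59.96 and 203 in those labelled wild type, also without overlap. Amot went the other way, with overlap. It was at 7775 to 12041.5 in libraries labelled Shox2-/- and 5673 to 8528 in those labelled wild type. Of 24 other definitive and gut endoderm genes 19 were tested, with 11 lower, 8 higher and a median of -0.13; at that threshold 3 were lower and 4 higher. Prox1, a homeobox factor of liver buds that heart and lymphatic cells also make, was higher without overlap, at 412 to 517 in libraries labelled Shox2-/- and 101 to 276 in those labelled wild type. Trh was higher with overlap, at 498 to 1214 in libraries labelled Shox2-/- and 93.2 to 558 in those labelled wild type. Shh, the hedgehog ligand of gut endoderm, and Cldn6, a tight junction claudin, were lower without overlap. Shh was at 2.96 to 13.4 in libraries labelled Shox2-/- and 19.9 to 105 in those labelled wild type. Cldn6 was at 86.5 to 416 in libraries labelled Shox2-/- and 459 to 526 in those labelled wild type. The parietal endoderm list, whose matrix genes mesenchyme also expresses, had 6 lower and 5 higher of 11 and a median of -0.02, with 1 lower and 2 higher at that threshold. In limma 0 genes of these 4 lists passed at an adjusted p under 0.05.

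Markers of other cell types moved between the same libraries, and their part in the endoderm values was not tested. The epithelial list, whose products endoderm also makes, had 16 of 17 genes lower, 9 of them at an unadjusted p under 0.05, where 7.23% of all genes were lower. Its summed normalized counts were 6476, 16596 and 7336 in libraries labelled Shox2-/-, and 14048, 12647 and 9913 in those labelled wild type. For Cdh1, E-cadherin, the values were 292, 476 and 209.6 in libraries labelled Shox2-/-, and 624, 647 and 679.9 in those labelled wild type. The blood list summed to 3372, 21473 and 3923 in libraries labelled Shox2-/-, and to 19280, 18426 and 1434 in those labelled wild type. Library 2 was the highest of those labelled Shox2-/- for 11 of 11 blood markers, and Spi1, a myeloid factor, was listed at 0 in library 1. Hba-x, the embryonic alpha-like globin of yolk sac erythrocytes, named after its values were seen, had 339, 2868 and 446 in libraries labelled Shox2-/-, and 2934, 3114 and 13.4 in those labelled wild type. Ptprc, the pan-leukocyte CD45 gene, had 25.9, 1151 and 72.6 in libraries labelled Shox2-/-, and 163, 158 and 525 in those labelled wild type. The endothelial list summed to 8867 to 14083 in libraries labelled Shox2-/- and 5248 to 16280 in those labelled wild type, with 5 of 14 genes higher. Cardiomyocyte markers had 6 of 15 higher and a median log2 change of -0.14, mesenchyme markers 4 of 10 higher and one of -0.68. Pluripotency markers had 4 of 12 higher and a median of -0.27. At that unadjusted threshold, 4 mesenchyme markers were lower and 1 higher, 1 pluripotency marker was lower and 2 higher, 2 endothelial markers and 1 cardiomyocyte marker were lower, and 0 blood markers were either.

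**Figure D4:**
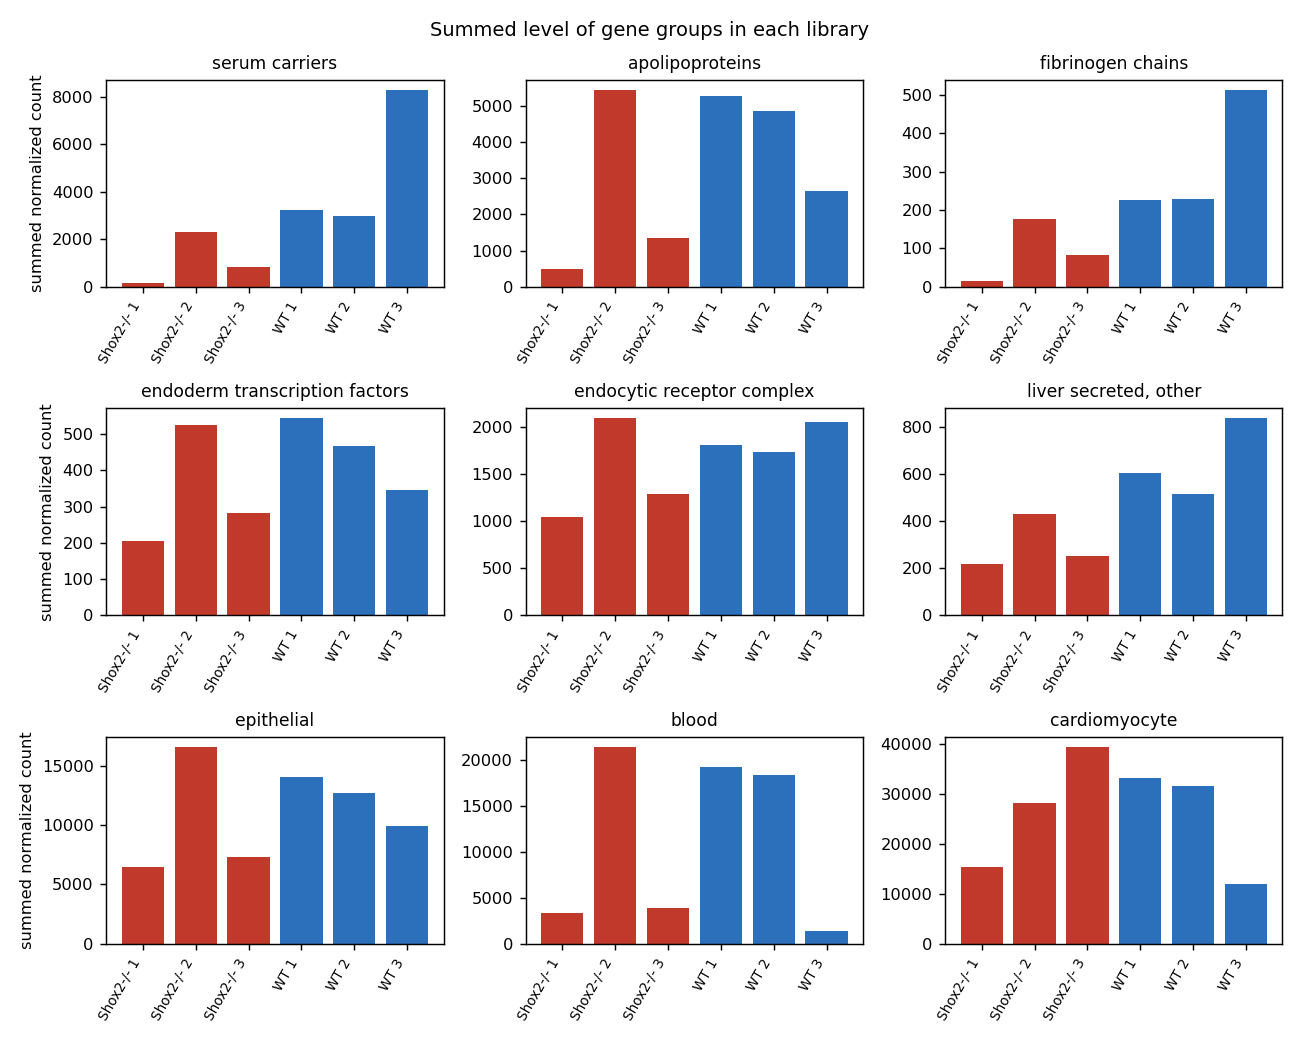
Summed normalized counts of 5 of the 7 role groups of endoderm members (enzymes and signalling genes are not drawn), and of 4 lists of other genes, in each library (bars from 0); red bars are libraries labelled Shox2-/- and blue bars those labelled WT. Library 2 labelled Shox2-/- has the tallest red bar for the 5 groups drawn and for the liver, epithelial and blood lists, and library 3 labelled WT has the tallest bar for serum carriers (8298) and the shortest for blood (1434). For the signalling genes, not drawn, the sums were 214.5, 173.4 and 152.6 in libraries labelled Shox2-/-, and 174.3, 153.2 and 244.2 in those labelled WT.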

How the data were processed

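Each of the 6 RNA-seq libraries has 1 deposited table, listing 30631 genes by Ensembl ID and symbol. Genome build mm10 and the tools BWA, HTSeq, CASAVA 1.8.2 and DESeq2 1.14.0 are named, per the submitters' processing notes, with no role or order. The deposited values (called normalized counts) behave as read counts that the authors divided by 1 size factor per library, since 100% came out as whole multiples of 1 step, within 0.1 reads. A value of 10 stood for 5.78 to 15.3 reads. Strand use is not given in the sources used here.

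Values were analysed as log2(value + 1) with limma 3.58.1 in R 4.3.3 (1 term for the label, eBayes with trend, two-sided tests, p adjusted by Benjamini-Hochberg over all genes tested). The 17034 genes with at least 10 in at least 3 libraries were tested, and the fold changes understate those of low genes. The fit was tested on simulated data. That simulation gave all genes the same relative spread between samples beyond counting error and held no close pair. It therefore does not show how the fit does on genes as variable as the members. The count-based tests planned were not run. Positions and exon lengths are from GENCODE M21 (GRCm38), in which 30484 IDs were found. Floors cover counting error only. All members are named, with up to 4 genes of lowest p from each companion list, and Hba-x in addition. The members and lists were chosen with earlier results of these data known.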

Additional observations from a re-analysis of the deposited data

How the results depend on the processing

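Of the 28 tested members, 24 kept their direction in every alternative setting of limma that gave them a value, 21 lower and 3 higher. There were 16 settings for 18 members and 15 for the other 10, which the stricter filter left out. Cubn turned to -0.0218 with scaling by library totals, -0.0068 with upper quartiles and -0.29 with voom sample quality weights, and ran from -0.30 (without library 3 labelled wild type; -0.28 without library 2 labelled Shox2-/-) to 0.21 with each library left out. Sox17 turned to 0.0019 with a block for the Diff9 libraries, and ran from -0.68 to 0.25 (without library 1 labelled Shox2-/-; 0.0118 without library 1 labelled wild type). Sct ran from -0.45 to 0.11 (without library 3 labelled Shox2-/-). Soat2 turned to -0.17 with voom sample quality weights and ran from -0.11 (without library 3 labelled wild type) to 0.93. The cause was not tested. With each library left out in turn, 0 to 2 members and 0 to 51 genes were called, the median log2 change of members ran from -1.76 to -0.50, and 5 to 18 members had groups without overlap. All of the 2 and 51 calls came without library 2 labelled Shox2-/-. Without library 1 or library 3 labelled wild type, 9 and 11 members had groups without overlap, where 5 did with all libraries. Groups with fewer libraries overlap less often in any gene. The share of all genes without overlap was not computed for these settings, so such counts are no result about the members. Over all genes, 295 were called by voom with sample quality weights and 2 without the filter on low values, in both cases with 0 members. With libraries 1 and 2 labelled wild type averaged into 1 sample, 0 members and 0 genes were called. The median log2 change of members was then -1.14. For the tested members lower without overlap, Afp, Apoa2, Fgb and Foxa1, limma adjusted p was then 0.515 to 0.561. With all 6 libraries it was 0.287 to 0.352. With a filter at 50, 18 members were tested and 3 had groups without overlap. Foxa1 and Amn were not among those tested, and Apoa2 passed only through the libraries labelled wild type. The share of all genes was not computed for this setting either, so its count is no result about the members. The planned count-based tests on recovered reads were not run. No paired analysis was possible because the labels share only the number Diff9 between groups. Depth limits Alb, Ahsg, Apoa4, Trf, Fga, Fgg, Amn, Foxa1 and Cer1 among others, which rest on few reads in several libraries.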
